A study of Mus musculus with 6 samples.

Results

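The core transcription factors of the pancreatic beta cell were read in MIN6, a mouse insulinoma line used as a beta cell model, after transfection with an siRNA that targets Hlxb9, a homeodomain factor of beta cells whose gene symbol is Mnx1, or after a scrambled negative control siRNA. The set holds 10 genes, Pdx1, Nkx6-1, Nkx2-2, Neurod1, Pax6, Isl1, Foxa2, Rfx6, Insm1 and Mafa. Its members on the array are all probe sets whose platform annotation gives one of these symbols alone. This gave 16 of the 45101 probe sets in the table, and they cover 8 of the 10 genes. No probe set carried the symbol of Rfx6 or Mafa alone, so these genes have no value here.

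The study holds 3 arrays of Hlxb9 siRNA cells and 3 arrays of control siRNA cells. Both groups were transfected by nucleofection and a lipid reagent, and total RNA was taken 72 hours later. Hlxb9 siRNA samples were put on arrays only where a western blot showed Hlxb9 protein lower by more than 75%. MIN6 is 1 tumour-derived line, so no replicate is an animal, and the labels call the samples sorted cells without naming a gate.

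Beta cell identity rests on a small network of DNA-binding proteins that bind the insulin gene and one another's control regions. Pdx1, Nkx6-1, Nkx2-2, Pax6 and Isl1 carry homeodomains, as Mnx1 does, and many homeodomains bind sites with the core TAAT. Neurod1 is a basic helix-loop-helix protein that binds E-boxes, CANNTG, together with E proteins. Foxa2 is a forkhead protein that can open chromatin, Rfx6 is an RFX winged-helix protein, Insm1 is a zinc finger repressor of endocrine cells, and Mafa is a basic leucine zipper activator of the insulin gene. The comparison asks whether the transcripts of these factors differ when Hlxb9 is reduced.

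The promoters of 3 members are shown because the probe sets of these members are singled out below. Pdx1 and Isl1 each had a probe set that was lower on every Hlxb9 siRNA array than on every control array. Pax6 has 2 start sites in the table, and its probe sets went different ways. Sequences are the 250 bases before each start, 5′ to 3′ on the gene's strand, from RefSeq on build GRCm38.p6. Capitals mark TAAT on either strand (ATTA when read from the other strand) and CANNTG, which reads the same on both strands.
Pdx1, chr5:147269847-147270096 (+ strand): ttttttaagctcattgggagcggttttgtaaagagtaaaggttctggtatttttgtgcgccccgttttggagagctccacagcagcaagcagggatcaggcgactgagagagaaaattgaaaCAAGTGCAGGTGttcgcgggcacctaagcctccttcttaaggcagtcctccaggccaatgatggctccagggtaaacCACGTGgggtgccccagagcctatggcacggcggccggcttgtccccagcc
Isl1, chr13:116309689-116309938 (- strand): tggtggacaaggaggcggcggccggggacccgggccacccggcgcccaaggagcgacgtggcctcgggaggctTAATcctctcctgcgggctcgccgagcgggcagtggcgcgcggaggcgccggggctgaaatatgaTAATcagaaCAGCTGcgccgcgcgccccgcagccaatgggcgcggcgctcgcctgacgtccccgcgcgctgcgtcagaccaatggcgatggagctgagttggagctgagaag
Pax6 start 1, chr2:105668646-105668895 (+ strand): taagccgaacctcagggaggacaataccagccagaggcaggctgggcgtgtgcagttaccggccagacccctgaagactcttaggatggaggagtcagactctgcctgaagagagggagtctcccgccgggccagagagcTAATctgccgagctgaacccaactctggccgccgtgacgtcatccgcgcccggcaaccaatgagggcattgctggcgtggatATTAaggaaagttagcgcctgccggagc
Pax6 start 2, chr2:105682213-105682462 (+ strand): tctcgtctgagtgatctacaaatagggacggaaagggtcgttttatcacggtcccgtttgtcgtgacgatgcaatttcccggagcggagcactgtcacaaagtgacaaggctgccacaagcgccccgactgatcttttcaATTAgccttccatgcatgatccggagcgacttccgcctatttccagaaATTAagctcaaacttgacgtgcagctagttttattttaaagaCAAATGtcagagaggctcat
Of the 10 members, 8 matched this promoter table with 11 start sites. TAAT was found before 7 of these 11 starts, against 54.9% of all 32851 promoters in the table. The Pdx1 stretch held 0 TAAT and 3 E-boxes, the Isl1 stretch held 2 TAAT and 1 E-box, and the E-box of Isl1 began 103 bases before the start. Each Pax6 start had 2 TAAT, and the second also had 1 E-box. E-boxes stood in 66.2% of all promoters. The palindrome TAATTA, which many homeodomains bind, was found before 0 of the 11 starts, against 4.84% of all promoters. These matches describe the letters only, and the array probes are not tied here to a start site.

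Transcript levels of the core factors differed little between Hlxb9 siRNA cells and control siRNA cells, and no difference passed the test. Of the 16 probe sets, 4 had a higher and 12 a lower mean after Hlxb9 siRNA, with a median difference of -0.07 log2, against 0.0041 over all 45037 probe sets tested. The test was limma, with p-values adjusted by Benjamini-Hochberg over all of these. It called 0 of 16, with adjusted p from 0.664 to 0.982, and 0% of all probe sets were called. At an unadjusted limma p of 0.05 the count was also 0 of 16, against 7.62% of all probe sets. The 95% interval of the difference included 0 for all 16. For 14 of them it lay inside a 2-fold change in either direction, between -0.81 and 0.53 log2, and the exceptions were 2 Pax6 probe sets. All values are log2 RMA signals, a scale on which 1 unit is a doubling. Differences are taken within a probe set, since brightness depends on the probes, and the table's median of 5.16 serves below only as a rough mark of dim signal. In RNA from whole cultures, fewer cells of a type and less RNA per cell cannot be told apart.

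The targeted gene was read first. Mnx1, on its only probe set 1460299_at, read 7.53, 7.41 and 7.28 on Hlxb9 siRNA arrays, against 7.82, 7.50 and 7.77 on control arrays. The groups overlapped, since Hlxb9 siRNA replicate 1 lay above control replicate 2. The difference was -0.29 ± 0.13 log2 (SE; limma adjusted p = 0.659, unadjusted p = 0.0547). The exact permutation test over arrays gave p = 0.2 two-sided, where 3 against 3 cannot go below 0.1. As a level the limma difference is -18.0%, with a 95% interval from -33.1% to 0.515%. The probe set reads the transcript, whereas the samples were chosen on the protein.

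One control array stood apart and touches several results below. Correlations between arrays were 0.995 or higher except for control replicate 3, at 0.988 to 0.991. The 3′ minus 5′ difference of the Gapdh control probe sets was 0.73, 0.69 and 0.70 log2 on Hlxb9 siRNA arrays, against 0.78, 0.65 and 2.13 on control arrays. For beta-actin it was 2.59, 2.49 and 2.64 on Hlxb9 siRNA arrays, against 2.69, 2.41 and 3.22 on control arrays. Control replicate 3 was the highest or lowest of the 6 arrays for 10 of the 16 core factor probe sets, and for 57.4% of all probe sets. Differences are therefore given with and without it where it matters. Its part in those differences was not tested.

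As a check of the cell line, Ins2, encoding insulin, averaged 13.81 log2 in Hlxb9 siRNA cells and 13.85 in control cells (n = 3 each, as for the other means here), and Iapp, the co-secreted islet amyloid peptide, 14.39 and 14.42. Of the hormone genes of other islet cells, 3 also read above the median of the table in both groups. These were Gcg (glucagon) at 12.87 and 13.00, Sst (somatostatin) at 13.10 and 13.12 and Ppy (pancreatic polypeptide) at 10.09 and 8.96. Ppy differed by 1.13 ± 0.81 log2 (SE; limma adjusted p = 0.737), with overlapping groups, and by 0.32 without control replicate 3. Its pairs of equal number differed by 1.08, 1.08 and 1.23. Ghrl (ghrelin) read 4.86 and 5.30, on either side of the median. Of the other markers of those cells, Hhex at 3.05 and 3.13, Ghsr at 2.85 and 3.06 and Irx1 at 4.91 and 5.15 were dim. Above the median were the alpha cell genes Ttr at 14.01 in both groups, Slc7a2 at 8.83 and 8.81 and Irx2 at 6.72 and 6.83. So was Rbp4 of delta cells, at 7.26 and 6.985. Below the median lay 2 of 4 delta cell genes, 1 of 5 alpha cell genes, 1 of 2 PP and epsilon cell genes and 0 of 10 beta cell genes. Among genes of other cell types, Cpa1 (acinar) at 3.60 and 3.53, Pecam1 (endothelial) at 3.17 and 3.44 and Ptprc (leukocyte) at 3.19 and 3.09 were under the median. Bhlha15 (acinar) at 9.90 and 10.23, Cd68 (leukocyte) at 7.37 and 6.83, Krt7 (duct) at 11.86 and 11.74 and Snap25 (neuron) at 12.08 and 12.12 were above it. Of the marker genes with a probe set, 5 of 5 endothelial, 7 of 10 acinar, 5 of 6 leukocyte and 6 of 8 fibroblast genes lay below that median. So did 4 of 5 duct genes, but only 1 of 5 neuron genes. Limma called 0 genes of any marker list.

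**Figure D1:**
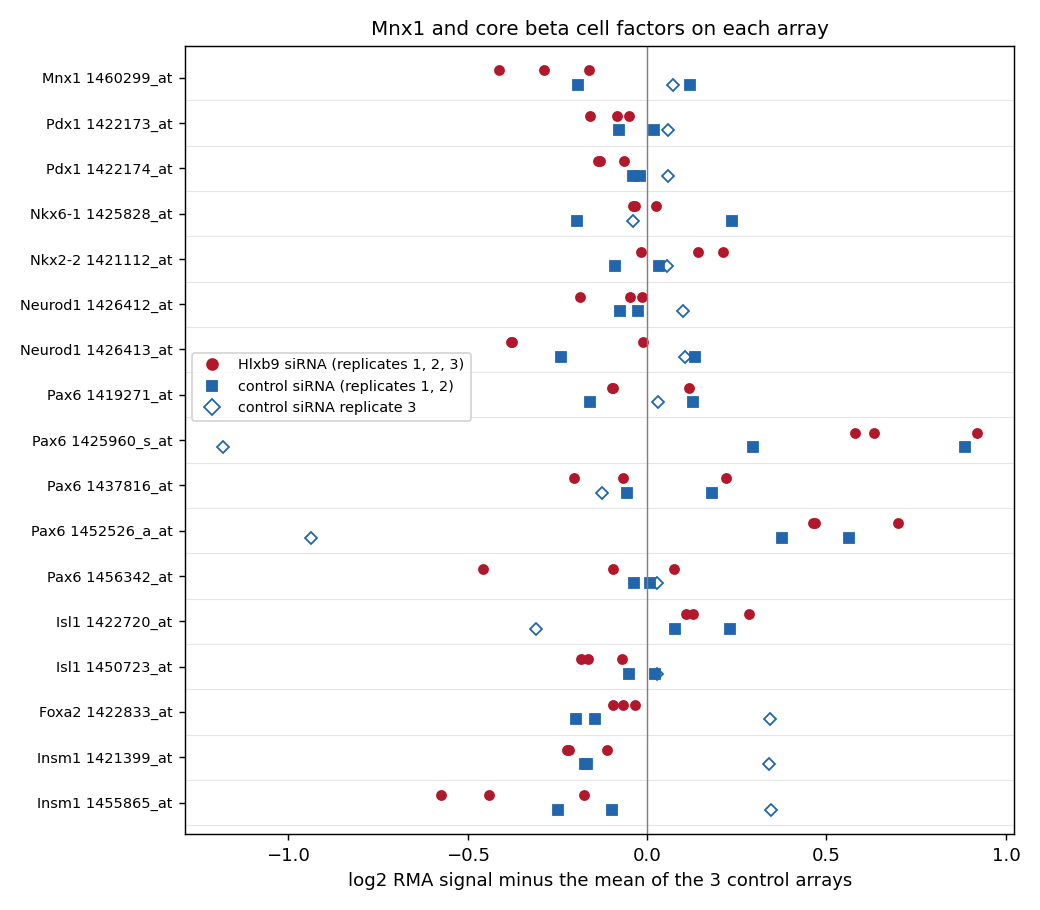
Log2 RMA signal of Mnx1 and the 16 core factor probe sets on each array, minus that probe set's mean over the 3 control arrays (x axis, log2). Circles are Hlxb9 siRNA arrays, squares are control replicates 1 and 2, and open diamonds are control replicate 3, which stands far to the left for 2 Pax6 probe sets and to the right for Foxa2 and Insm1.

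Pdx1, the homeodomain factor needed to form the pancreas and to keep the insulin gene active, was slightly lower after Hlxb9 siRNA on both probe sets. Its brighter probe set, 1422174_at, read 11.98, 11.98 and 12.05 on Hlxb9 siRNA arrays, against 12.09, 12.08 and 12.17 on control arrays. The groups did not overlap, and the pairs of equal number differed by -0.11, -0.10 and -0.12 log2. The difference was -0.11 ± 0.10 (SE; limma adjusted p = 0.778), or -7.36% with a 95% interval from -20.5% to 8.01%. The second probe set, 1422173_at, read 9.09, 9.06 and 8.98 on Hlxb9 siRNA arrays, against 9.06, 9.16 and 9.20 on control arrays. There the groups overlapped and the difference was -0.10 ± 0.10 (adjusted p = 0.805). Without control replicate 3 these stood at -0.08 and -0.07.

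Of the 16 probe sets, 2 had all Hlxb9 siRNA arrays below all controls, those of Pdx1 and Isl1 named here, against 7.29% of all probe sets. None of the 16 had all Hlxb9 siRNA arrays above all controls, against 8.27% of all probe sets.

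Isl1, a LIM-homeodomain factor that acts with the adaptor Ldb1 in islet cells, differed in opposite directions on its 2 probe sets. On 1450723_at it read 12.25, 12.27 and 12.36 on Hlxb9 siRNA arrays, against 12.45, 12.38 and 12.46 on control arrays, and the groups did not overlap. The difference was -0.14 ± 0.10 log2 (SE; limma adjusted p = 0.727), or -9.24% with a 95% interval from -22.3% to 6.00%. On 1422720_at Isl1 read 10.79, 10.61 and 10.63 on Hlxb9 siRNA arrays, against 10.74, 10.58 and 10.20 on control arrays. Control replicate 3 was the lowest here, and the other arrays ran from 10.58 to 10.79. The difference of 0.17 ± 0.15 (adjusted p = 0.78) stood at 0.02 without that array, whereas that of 1450723_at stood at -0.13. Thus 1450723_at was lower with and without control replicate 3, and 1422720_at was higher mainly with it.

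The NK homeodomain factors showed no common direction. Nkx6-1, which activates beta cell genes and keeps alternative islet fates silent, read 9.41, 9.35 and 9.34 on Hlxb9 siRNA arrays, against 9.18, 9.62 and 9.34 on control arrays. The Hlxb9 siRNA arrays lay inside the range of the controls, with a difference of -0.02 ± 0.13 log2 (SE; adjusted p = 0.982). Its control SD of 0.219 exceeded its Hlxb9 siRNA SD of 0.0355 (n = 3 each), and the difference between those spreads was not tested. Nkx2-2, which is needed for beta cells to form and represses other islet programmes, read 10.86, 11.02 and 11.09 on Hlxb9 siRNA arrays, against 10.91, 10.79 and 10.94 on control arrays. It was the only one of the 8 genes whose brightest probe set had a higher mean after Hlxb9 siRNA, by 0.11 ± 0.11 (adjusted p = 0.8, 95% interval -0.14 to 0.36). It was lower in the first pair, by -0.05, and higher in the other pairs, by 0.23 and 0.16.

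Neurod1, the E-box factor that drives insulin transcription and endocrine maturation, was lower in all 3 pairs of equal number on both of its probe sets. On 1426413_at it read 10.39, 10.39 and 10.76 on Hlxb9 siRNA arrays, against 10.90, 10.53 and 10.88 on control arrays. Hlxb9 siRNA replicate 3 lay above control replicate 2, so the groups overlapped. The difference was -0.26 ± 0.15 log2 (SE; adjusted p = 0.698), or -16.3% with a 95% interval from -34.5% to 7.14%. Without control replicate 3 that difference stood at -0.20. On the brighter 1426412_at it read 11.98, 11.84 and 12.01 on Hlxb9 siRNA arrays, against 12.00, 11.95 and 12.13 on control arrays. The difference there was -0.08 ± 0.11 (adjusted p = 0.848), and -0.03 without control replicate 3. The pair differences ran from -0.51 to -0.12 on 1426413_at and from -0.12 to -0.02 on 1426412_at.

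Insm1, the zinc finger repressor, had the lowest difference of the set. On its brighter probe set, 1455865_at, it read 9.54, 9.67 and 9.94 on Hlxb9 siRNA arrays, against 9.87, 10.02 and 10.46 on control arrays. Hlxb9 siRNA replicate 3 lay above control replicate 1, so the groups overlapped, while within pairs of equal number it was lower by -0.33, -0.34 and -0.52. The difference was -0.40 ± 0.18 log2 (SE; limma adjusted p = 0.664, unadjusted p = 0.0585), or -24.0% with a 95% interval from -43.0% to 1.28%. With the replicate number as a block the unadjusted limma p was 0.0111 and the adjusted p = 0.496.

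The second probe set of Insm1, 1421399_at, read 7.70, 7.71 and 7.81 on Hlxb9 siRNA arrays, against 7.76, 7.75 and 8.26 on control arrays. Control replicate 3 was the highest array for both probe sets. Without it the differences were -0.22 ± 0.14 (adjusted p = 0.625) on 1455865_at and -0.01 ± 0.09 (adjusted p = 0.974) on 1421399_at, where all 6 arrays had given -0.18. In all, 6 of the 16 probe sets were lower in all 3 pairs, against 16.0% of all probe sets, and 3 of 16 were higher in all 3 pairs, against 17.9%. The lower ones were both of Neurod1, both of Insm1, and the brighter ones of Pdx1 and Isl1, so several are readings of 1 gene. The higher ones were Isl1 on 1422720_at and Pax6 on 1425960_s_at and 1452526_a_at. The pairing by number is taken from the values, since the labels name no shared day or culture.

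Foxa2, the forkhead factor that acts upstream of Pdx1, read 8.99, 9.02 and 8.96 on Hlxb9 siRNA arrays, against 8.91, 8.86 and 9.40 on control arrays. The 3 Hlxb9 siRNA arrays lay above control replicates 1 and 2 and below control replicate 3. The difference was -0.07 ± 0.15 log2 (SE; adjusted p = 0.925) over all arrays and 0.11 ± 0.09 (adjusted p = 0.721) without control replicate 3, so its sign turned.

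Pax6, which carries a paired domain and a homeodomain and drives islet hormone genes, had 5 probe sets that did not act as one. On the brightest, 1419271_at, it read 11.39, 11.18 and 11.18 on Hlxb9 siRNA arrays, against 11.41, 11.12 and 11.31 on control arrays, a difference of -0.03 ± 0.12 log2 (SE; adjusted p = 0.965). On 1437816_at it read 7.40, 6.98 and 7.11 on Hlxb9 siRNA arrays, against 7.36, 7.13 and 7.06 on control arrays, a difference of -0.02 ± 0.14. On both of these probe sets the groups overlapped almost wholly. On 1456342_at, the only one of the 16 with a mean below the table's median, it read 4.67, 4.49 and 4.13 on Hlxb9 siRNA arrays, against 4.60, 4.55 and 4.62 on control arrays, a difference of -0.16 ± 0.15.

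The other Pax6 probe sets carry suffixes that mark shared or variant transcripts, _s_at for probes that can match several transcripts and _a_at for probes common to alternative transcripts of a gene. On 1425960_s_at Pax6 read 6.89, 6.55 and 6.60 on Hlxb9 siRNA arrays, against 6.85, 6.26 and 4.79 on control arrays. On 1452526_a_at it read 8.46, 8.23 and 8.22 on Hlxb9 siRNA arrays, against 8.32, 8.14 and 6.82 on control arrays. On both, control replicate 3 alone was low, by -1.85 and -1.45 log2 against the mean of the other 5 arrays. Only 0.0711% and 0.395% of all probe sets had a lower value of that kind.

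Over all arrays these Pax6 probe sets differed by 0.71 ± 0.46 (SE; adjusted p = 0.713) and 0.54 ± 0.36 (adjusted p = 0.716), the highest differences of the 16. Without control replicate 3 they stood at 0.12 ± 0.19 and 0.07 ± 0.12. That array is also the one with the wide 3′ to 5′ difference of Gapdh and beta-actin, and on it Pax6 by 1419271_at and 1437816_at lay inside the range of the other arrays. Whether the low values go with RNA quality on that array was not tested.

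**Figure D2:**
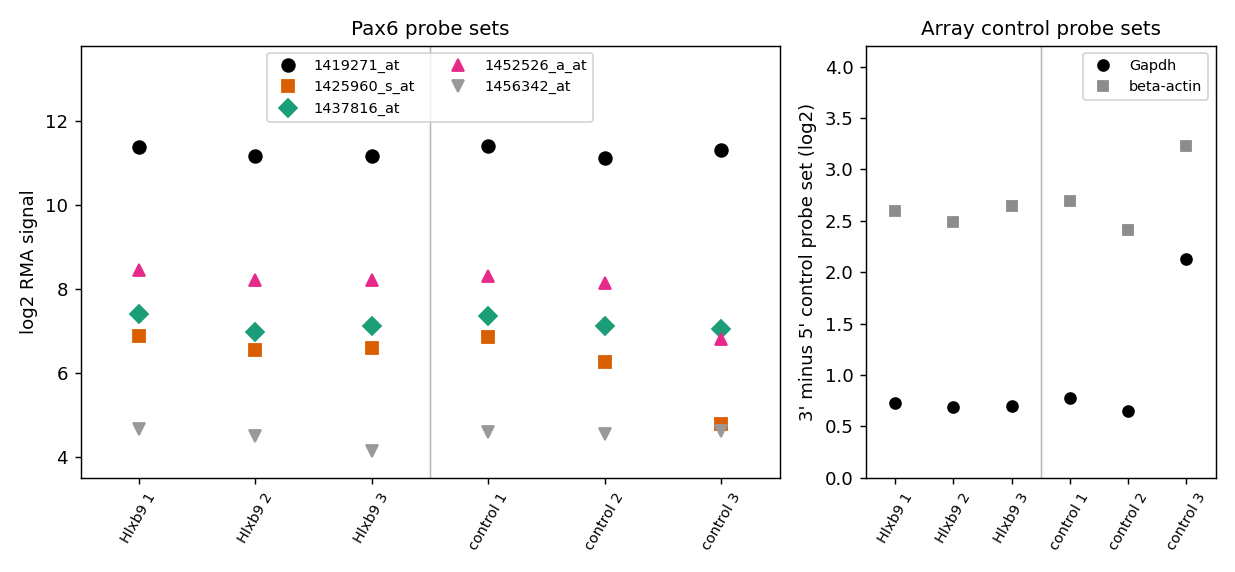
Left, log2 RMA signal of the 5 Pax6 probe sets on each array, with Hlxb9 siRNA arrays left of the line and control siRNA arrays right of it. Right, the 3′ minus 5′ difference (log2) of the Gapdh and beta-actin control probe sets; control replicate 3 is high on both, at 2.13 and 3.22, and low for Pax6 on 1425960_s_at and 1452526_a_at.

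Leaving out control replicate 3 lowered the size of the difference by over 1.5 times for 7 of the 16 core factor probe sets and turned the sign of 1, that of Foxa2. It raised the size by over 1.5 times for 2 with small differences, Nkx6-1 at -0.04 and Pax6 on 1437816_at at -0.08. The median difference of the 16 was then -0.03, with 11 lower, and limma still called 0 of 16 and 0 probe sets in all. Within groups, the SD of a core factor probe set ran from 0.0310 to 0.272 log2 in Hlxb9 siRNA cells and from 0.0328 to 1.07 in control cells, or to 0.309 in control cells without the 2 Pax6 probe sets.

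**Figure D3:**
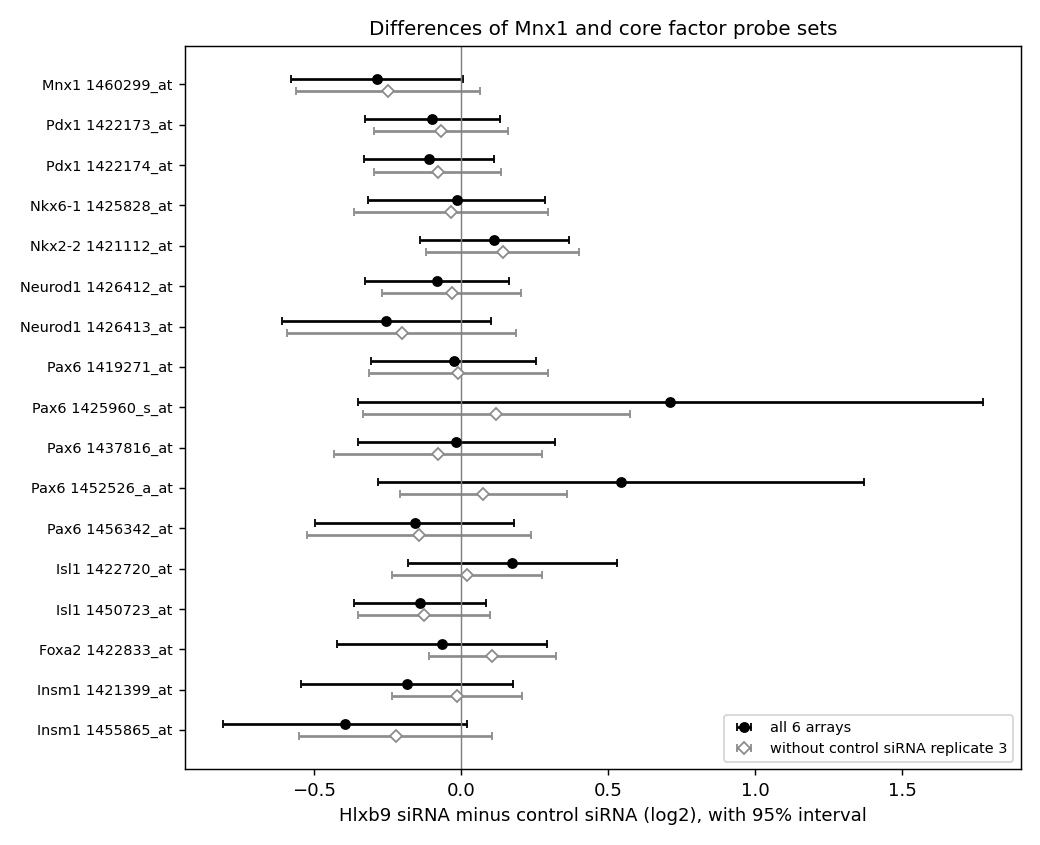
Hlxb9 siRNA minus control siRNA (log2, x axis) for Mnx1 and each core factor probe set, with limma's 95% interval, over all 6 arrays (black circles) and without control siRNA replicate 3 (grey diamonds). All intervals reach across 0, and those of 2 Pax6 probe sets are narrower and nearer to 0 without that array.

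Genes that the core factors bind or control were read next, by the brightest probe set of each gene. Of 28 listed, 24 had a probe set that could be used. Limma called 0 of 24, with 13 higher and 11 lower and a median of 0.03 log2, against 0.0023 over all 18193 genes. Without control replicate 3 that median was 0.0011, against 0.0270 over all genes. At an unadjusted p of 0.05 there were 2, both higher, against 7.95% of all genes in either direction and 4.21% higher. These were Trpm5, a calcium-activated cation channel, at 10.26 ± 0.07 in Hlxb9 siRNA cells and 9.96 ± 0.09 in control cells (SD, n = 3 each), and Gipr, the receptor of the incretin GIP, at 4.84 ± 0.16 and 4.56 ± 0.09, both with limma adjusted p of 0.645 or higher. G6pc2, the islet glucose phosphatase, averaged 12.88 and 13.10, and the prohormone-processing enzyme Cpe 12.69 and 12.96. For these 2 of 24, no Hlxb9 siRNA array reached the lowest control, against 7.75% of all genes. For another 2 of 24, Trpm5 and Gipr, every Hlxb9 siRNA array exceeded the highest control, against 9.55% of all genes. For Cpe the nearest arrays read 12.7400 in Hlxb9 siRNA cells and 12.7420 in control cells. For Gipr, whose means lay below the table's median in both groups, the nearest arrays read 4.6574 and 4.6362. The Cpe difference was -0.27, and -0.15 without control replicate 3. The calcium-binding protein gene Scgn averaged 10.43 and 10.07, and Nnat 12.28 and 11.99. With the replicate number as a block, limma called 0 of 24, and 3 had an unadjusted p under 0.05, against 9.19% of all genes. These were Trpm5, Scgn and Ucn3, without Gipr. Ucn3, encoding the beta cell peptide urocortin 3, read 9.31, 8.85 and 8.14 on Hlxb9 siRNA arrays, against 8.72, 8.30 and 7.52 on control arrays. Its groups overlapped, with pair differences of 0.59, 0.54 and 0.62 (limma adjusted p = 0.705, and 0.482 with the block). Without control replicate 3 the Ucn3 difference of 0.59 stood at 0.26, and the Scgn difference of 0.36 stood at 0.51.

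Partners and upstream factors had more lower than higher means after Hlxb9 siRNA. Of 24 listed, 22 had a probe set, 3 were higher and 19 lower, against 8992 lower of 18193 genes in all, and the median was -0.08 log2. Without control replicate 3 the count was 8 higher and 14 lower, with a median of -0.10. Of the 22 genes, 8 lay below the median of the table, all of them among the lower ones. Limma called 0 of 22, with adjusted p of 0.645 or higher. At an unadjusted p of 0.05 there were 4, all lower, against 3.74% of all genes that were lower at that p. For 5 of 22 no Hlxb9 siRNA array reached the lowest control, against 7.75% of all genes. For 1 of 22, Tcf3, every Hlxb9 siRNA array exceeded the highest control, against 9.55% of all genes. Tshz1, a zinc finger homeodomain factor, read 10.75, 10.70 and 10.78 on Hlxb9 siRNA arrays, against 11.14, 11.04 and 11.15 on control arrays. Its difference was -0.37 ± 0.10 (SE), but its other probe set differed by 0.33.

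Rfx3, an RFX factor of ciliated and endocrine cells, read 9.02, 9.07 and 9.34 on Hlxb9 siRNA arrays, against 9.47, 9.47 and 9.62 on control arrays. The difference was -0.38 ± 0.12, and -0.20 on the other Rfx3 probe set. St18 and Myt1, zinc finger relatives of each other, differed by -0.34 ± 0.12 and -0.13 ± 0.09, and their other probe sets stood at 0.23 and -0.09. Lmx1a, a LIM-homeodomain factor, differed by -0.33 on a dim probe set, at 2.99 in Hlxb9 siRNA cells and 3.33 in control cells. Tcf3, encoding the E proteins E12 and E47 that pair with Neurod1, differed by 0.26 ± 0.11, while its other probe sets stood at -0.37 and -0.31. The other genes with a higher mean were Ldb1, the adaptor of Isl1, at 0.13 ± 0.11, and Hnf4a, a nuclear receptor, at 0.12 ± 0.11. Without control replicate 3 Hnf4a stood at 0.07, and its other probe sets ran from -0.10 to 0.43.

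Close relatives of the core factors were the last list, with 19 of 21 on the array, 9 higher, 10 lower and a median of -0.06. Limma called 0 of 19. Pax4, a paired homeodomain factor of beta cell development, read 6.82, 6.99 and 6.81 on Hlxb9 siRNA arrays, against 5.79, 6.22 and 6.62 on control arrays. The difference was 0.66 ± 0.20 log2 (SE; adjusted p = 0.645) and every Hlxb9 siRNA array exceeded the highest control, as for 9.55% of all genes. Without control replicate 3 that difference was 0.87. Cdx2, the intestinal homeodomain factor, read 10.56, 10.40 and 10.55 on Hlxb9 siRNA arrays, against 10.14, 10.10 and 9.66 on control arrays. It differed by 0.54 ± 0.15 (adjusted p = 0.645) and by 0.39 without control replicate 3, while the second Cdx2 probe set stood at 0.08. These were the 2 of 19 at an unadjusted p of 0.05, against 7.95% of all genes in either direction. Nkx2-5 differed by -0.35 and Rfx2 by -0.19, but by -0.17 and -0.03 without control replicate 3. Nkx6-3 differed by 0.14 and Nkx2-1 by -0.11.

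**Figure D4:**
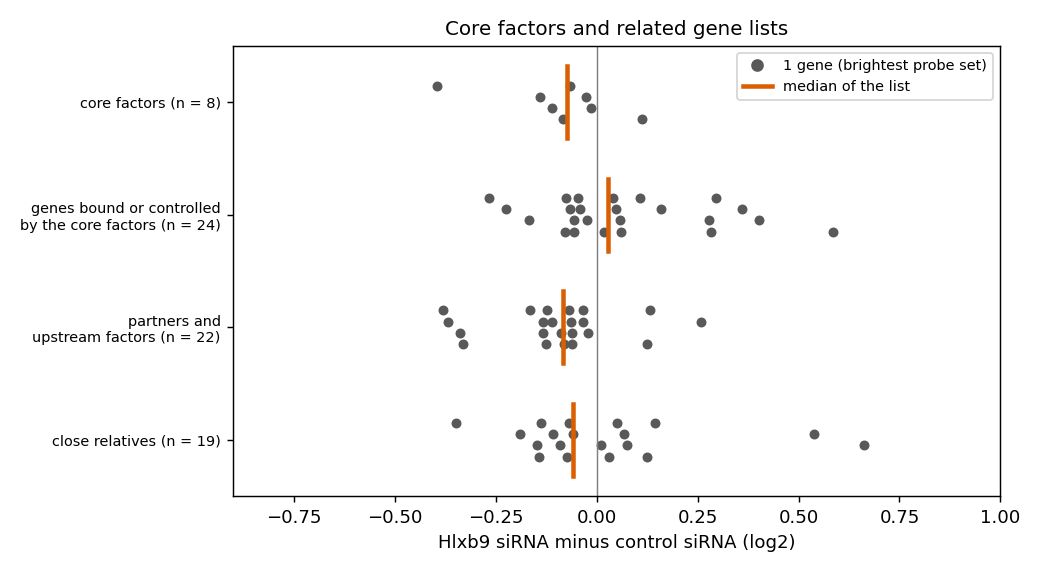
Hlxb9 siRNA minus control siRNA (log2, x axis) for each gene by its brightest probe set, in the core factors and 3 related lists; bars mark list medians, at -0.07, 0.03, -0.08 and -0.06. The lowest core factor is Insm1 at -0.40, and the highest of the relatives is Pax4 at 0.66.

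Genes whose 6 array values were most like those of each core factor were sought among 11340 genes above the table's median. For Insm1 the highest Pearson correlations were with Plk4 (0.997), Rnf4 (0.995) and Snx6 (0.992), and for Foxa2 with Dlgap5 (0.999), Chrnb4 (0.998) and Haus8 (0.997). For Pdx1 they were with Eml5 (0.998), Matr3 (0.994) and Chadl (0.993), and for Isl1 with Lypla1 (0.997), Derl1 (0.995) and Gcnt2 (0.995). Over 0.95 there were 345 genes for Foxa2, 129 for Insm1, 122 for Pdx1 and 83 for Isl1, but 9 for Neurod1, 6 for Pax6, 5 for Nkx2-2 and 1 for Nkx6-1. All of these rest on 6 arrays and are given as a description. On the brightest probe sets, control replicate 3 was the highest array for Foxa2, Insm1, Pdx1, Isl1 and Neurod1. Without it the correlations named were 0.994, 0.986 and 0.974 for Insm1 and 0.994, 0.99 and 0.98 for Foxa2. They were 0.995, 0.994 and 0.989 for Pdx1 and 0.997, 0.994 and 0.993 for Isl1. The counts over 0.95 are for all 6 arrays. The genes named were also picked on all 6 arrays. Their correlations without control replicate 3 therefore cannot show whether the likeness depends on that array.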

How the data were processed

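Biotinylated cRNA from 6 ug of total RNA was hybridised to Affymetrix mouse arrays, per the labels. The deposited values are log2 signals per probe set, and the submitters' processing notes name RMA and Partek without versions. Their RMA settings and test are unknown here. RMA is meant to equalise the arrays' distributions, so a shift shared by all genes may have been removed. The deposited arrays were not fully equal, with medians from 5.08 log2 on control replicate 3 to 5.21 on Hlxb9 siRNA replicate 2. The number of arrays limits the precision, and there is no read depth.

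Of the 45101 probe sets, 64 Affymetrix controls were left out of the fit and 45037 were tested. The platform annotation gives 1 symbol for 34945 of these and several for 932, and 9160 are unnamed here. Entrez identifiers of 34741 matched RefSeq (GRCm38.p6, names only), with 0 symbols changed. The groups were compared with limma 3.58.1 (R 4.3.3; lmFit, then eBayes) without covariates. Two-sided p-values were adjusted by Benjamini-Hochberg over all tested probe sets, and calls were made at 0.05. The fit was tested on simulated data. The series' text speaks of independent transfections without tying arrays to them, so p-values measure the spread between these samples. Deviations from the group means correlated between arrays of equal number with r of 0.155, 0.165 and 0.202. Between arrays of unequal number r ran from -0.206 to 0.072. Since each r of equal number is above 0.1, equal numbers were treated as pairs, on the values alone. Pair counts and block p-values thus rest on a pairing drawn from the same values.

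The members and gene lists were chosen with earlier results of these data known. The rule names every probe set of the members, Mnx1, and up to 6 genes of each other list by smallest unadjusted p, plus genes behind a count of 5 or fewer. Alternatives were the replicate block, other scalings, an offset of 32, filters, variance models, array weights and leaving out each array.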

Additional observations from a re-analysis of the deposited data

How the results depend on the processing

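Limma called 0 of the 16 core factor probe sets under every alternative run, and the lowest adjusted p of any of them was 0.104, for Insm1 on 1455865_at with array weights. The pairing by number, fitted as a replicate block, left the differences as they were and changed no call (Insm1 on 1455865_at at -0.3963, Mnx1 at -0.2862). Over all probe sets the count of calls was 0 except with array weights, which called 1132. The weights were 4.46 for control replicate 2 and 2.91 for Hlxb9 siRNA replicate 2, and from 0.204 to 0.792 for the other arrays. Those calls thus lean on 1 array per group. The median difference of the 16 was -0.13 after centring each array on its median, where the median of all probe sets was -0.0481, against 0.0041 before. With probe sets averaged per gene it was -0.0405, and it ran from -0.1171 to -0.0298 over the 6 fits that leave out 1 array. Counts at an unadjusted p of 0.05 ran from 0 to 3 of 16. Of 221 values of single core factor probe sets under alternatives, 211 kept their direction and 10 did not, all of small differences. The replicate block, the filters and the variance models other than array weights cannot change a difference. Their values are among the 211 by construction, so that count overstates the agreement. With array weights Pax6 on 1419271_at stood at 0.0569 and Foxa2 at 0.1211, Mnx1 at -0.1414, Nkx6-1 at -0.1976 and Pax6 on 1452526_a_at at 0.1591. Mnx1 stood at -0.3384 after centring on the median and at -0.3482 after repeated quantile normalization (limma adjusted p = 0.677 and 0.673). It ran from -0.3828 to -0.2231 over the fits that leave out 1 array. Over the fits that leave out 1 array, Pax6 on 1419271_at ran from -0.1058 to 0.0382 and on 1437816_at from -0.1354 to 0.0754, Nkx6-1 from -0.1136 to 0.1025 and Foxa2 from -0.1652 to 0.1058. The cause of these turns was not tested. Signal over background limits the reading of Pax6 on 1456342_at.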
